A study of Homo sapiens with 9 samples.

Results

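The enzymes that turn lanosterol into cholesterol were examined in SKMEL28 cells, a human melanoma cell line, at the level of their transcripts. The group comprised CYP51A1, TM7SF2, LBR, MSMO1, NSDHL, HSD17B7, EBP, SC5D and DHCR7, which were taken from the deposited tables by gene symbol. All 9 were among the 48162 genes of the tables, and all 9 were among the 15776 genes with enough reads to be tested. The cells carried a short hairpin RNA delivered by lentivirus and were kept under puromycin for 3 days. In shCont cells the hairpin was directed at GFP, in shp16 cells at p16, the product of CDKN2A, and shp16/shATR cells carried hairpins against both p16 and the kinase ATR. Each group had 3 RNA-seq libraries, described by the study as technical replicates of 1 experiment, so every p-value below measures the spread between these libraries and not between separate infections. The study's question was how transcription differs after loss of p16, with or without loss of ATR. Which ATR hairpin was used is not given in the sources used here.

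Lanosterol is the first sterol of the cholesterol pathway, and it becomes cholesterol by removal of methyl groups, reduction of double bonds and movement of a double bond within the ring. CYP51A1, a cytochrome P450, removes the first methyl group. TM7SF2 and LBR each reduce the double bond that this leaves, and LBR is also a protein of the inner nuclear membrane that binds B-type lamins and chromatin. MSMO1, NSDHL and HSD17B7 act in turn to remove the remaining pair of methyl groups. EBP shifts the ring double bond, SC5D introduces a second one beside it, and DHCR7 reduces the one that EBP had placed. Genes of the pathway are known targets of the transcription factor encoded by SREBF2, which is released from the endoplasmic reticulum when sterols are low and works together with NF-Y and Sp1-type factors at promoters.

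The sequences in front of a RefSeq start are shown for 6 of the genes, which mark the range of responses described below. This range runs from EBP, which passed no test in the fit of all 9 libraries, to TM7SF2, with the largest fold change of the 9. Each sequence is the 250 bases upstream of that start (build GRCh38.p14), read 5′ to 3′ on the strand of the gene. DHCR7 has 2 such starts, and the window of the first one listed is shown. The windows of CYP51A1, EBP and DHCR7 lie within the span of the gene in GENCODE 29, and those of LBR, MSMO1 and TM7SF2 reach into it. They are thus upstream of a RefSeq start and not of every start of the gene. Capitals mark every CCAAT (the NF-Y box) and every GGGCGG (the GC box bound by Sp1-type factors) on either strand. The window of CYP51A1 lies at chr7:92134478-92134727 on the minus strand, that of TM7SF2 at chr11:65111622-65111871 on the plus strand and that of LBR at chr1:225428822-225429071 on the minus strand. The window of MSMO1 lies at chr4:165327419-165327668 on the plus strand, that of EBP at chrX:48521558-48521807 on the plus strand and that of DHCR7 at chr11:71448394-71448643 on the minus strand.
CYP51A1: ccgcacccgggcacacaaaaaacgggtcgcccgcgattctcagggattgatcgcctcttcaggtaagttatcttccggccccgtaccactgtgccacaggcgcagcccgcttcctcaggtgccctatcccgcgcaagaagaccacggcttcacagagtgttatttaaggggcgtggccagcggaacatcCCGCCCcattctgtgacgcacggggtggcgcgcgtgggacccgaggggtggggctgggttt
TM7SF2: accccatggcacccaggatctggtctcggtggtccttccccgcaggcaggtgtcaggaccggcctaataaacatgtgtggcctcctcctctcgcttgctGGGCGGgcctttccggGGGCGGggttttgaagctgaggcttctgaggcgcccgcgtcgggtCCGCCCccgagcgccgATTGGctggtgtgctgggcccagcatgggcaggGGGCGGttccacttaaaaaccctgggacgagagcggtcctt
LBR: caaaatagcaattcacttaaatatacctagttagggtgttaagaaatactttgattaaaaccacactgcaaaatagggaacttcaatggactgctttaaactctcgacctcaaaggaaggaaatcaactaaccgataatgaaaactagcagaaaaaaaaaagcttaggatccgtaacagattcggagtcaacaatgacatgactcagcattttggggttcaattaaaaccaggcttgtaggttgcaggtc
MSMO1: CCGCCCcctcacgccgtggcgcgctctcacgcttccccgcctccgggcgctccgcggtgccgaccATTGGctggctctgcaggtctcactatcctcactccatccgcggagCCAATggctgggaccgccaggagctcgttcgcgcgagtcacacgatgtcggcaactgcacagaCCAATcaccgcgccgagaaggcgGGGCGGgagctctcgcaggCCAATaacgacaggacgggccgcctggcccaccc
EBP: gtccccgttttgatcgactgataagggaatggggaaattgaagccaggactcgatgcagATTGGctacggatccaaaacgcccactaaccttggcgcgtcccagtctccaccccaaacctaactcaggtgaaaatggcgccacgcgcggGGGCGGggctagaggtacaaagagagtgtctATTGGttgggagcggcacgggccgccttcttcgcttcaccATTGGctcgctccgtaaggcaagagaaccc
DHCR7: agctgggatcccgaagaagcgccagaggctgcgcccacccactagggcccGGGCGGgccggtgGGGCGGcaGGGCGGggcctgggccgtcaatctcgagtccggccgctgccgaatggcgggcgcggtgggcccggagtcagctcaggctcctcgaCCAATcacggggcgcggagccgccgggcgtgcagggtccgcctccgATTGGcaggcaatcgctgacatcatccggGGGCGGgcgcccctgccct

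SC5D and DHCR7 had 2 RefSeq starts each, so the 9 genes had 11 windows. A gene was counted where any of its windows matched, whereas the shares over all windows are per window. CCAAT was present in the windows of 7 of the 9 genes, all but CYP51A1 and LBR, and in 32.0% of all 35116 RefSeq windows of this length. GGGCGG was present in 7 of the 9, all but LBR and NSDHL, and in 42.6% of all windows. MSMO1 carried 4 CCAAT boxes and 2 GC boxes, DHCR7 carried 2 and 4 in the window shown, and TM7SF2 carried 1 and 4. The other window of DHCR7 held neither motif. EBP, whose transcript passed no test in the fit of all 9 libraries, carried 3 CCAAT boxes and 1 GC box. The sterol regulatory element TCACNCCAC was searched on both strands and matched in none of the 11 windows and in 0.883% of all windows, which says only that these letters are not in these windows. In NSDHL 2 of its 5 CCAAT matches overlap, as 1 on each strand, and no matches of different motifs overlapped in the 9 genes.

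Library totals were between 17314662 and 23588174 counts. CDKN2A was at 162, 112.5 and 103 TMM-normalized CPM (called CPM below) in shCont and at 78.1, 93.5 and 99.9 in shp16. The change was −0.48 in log2 units (SE, the standard error, 0.16, with adjusted p = 0.0723 by edgeR), which did not pass the threshold of 0.05. The highest of these values was that of the library labelled shCont replicate 1, and the change without it is not given here. ATR was at 39.9, 39.98 and 41.0 CPM in shp16/shATR and between 83.4 and 93.5 in shp16. In shCont it was at 45.9, 93.5 and 96.4 CPM, so that the library labelled shCont replicate 1 was near the shp16/shATR libraries for ATR while it had the highest CDKN2A of all. That library also stood apart over all genes: the coefficient of variation estimated by edgeR was 0.149 with it and 0.0903 without it. Results of the enzymes that rest on shCont are therefore given with and without it. Replicate 1 of shp16 stood apart to a smaller degree, with a chi-square per degree of freedom of 37.2 and 37.9 against its fellow replicates, which differed from each other by 1.94, the lowest of any pair and still above sampling noise. The 7 melanocyte markers (MITF, PMEL, MLANA, TYR, TYRP1, DCT and SOX10) were all tested, and their summed level was between 7462 and 14285 CPM in every library. In the fit of all 9 libraries TYRP1 was the only one called, lower by each test. Its log2 changes were −0.43 with the p16 hairpin, −0.88 with the ATR hairpin added and −1.31 between the ends. Without the library labelled shCont replicate 1, MLANA was also called higher with the ATR hairpin added (0.24, adjusted p = 0.0387) and between the ends (0.45, adjusted p = 0.0013). The shares of all genes called higher were then 8.94% and 15.9%. DCT was then called lower between the ends (−0.50, adjusted p = 0.0065). Among the markers of other cells, PTPRC and CD3E were at 0 in every library, ALB and EPCAM were at or below 0.549 CPM, and PECAM1 was not analysed here. KRT14 was at or below 0.154 CPM in shCont and between 1.13 and 2.96 CPM in the other libraries, and COL1A1 was at or below 1.51 CPM. The summed level of these markers was between 0.257 and 0.884 CPM in shCont, between 2.51 and 3.85 in shp16 and between 1.74 and 4.21 in shp16/shATR, and their part in the results below was not tested.

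The p16 hairpin came with higher transcript levels of 5 of the 9 enzymes and a lower level of none. CYP51A1 rose 2.53-fold, MSMO1 1.93-fold, DHCR7 1.59-fold, NSDHL 1.48-fold and HSD17B7 1.42-fold. TM7SF2, LBR, SC5D and EBP did not pass the test. The median log2 fold change over the 9 was 0.56 (range −0.08 to 1.34), beside −0.016 over all genes tested. Over all genes 7.23% were called higher and 7.59% lower, at a Benjamini-Hochberg adjusted p of 0.05. The shp16 libraries lay clear of the shCont libraries for 5 of the 9 (CYP51A1, MSMO1, NSDHL, SC5D and DHCR7), all upward, and for 33.6% of all genes in either direction. In these bulk samples more cells expressing a gene and more RNA per cell cannot be told apart. With the library labelled shCont replicate 1 left out, 6 of the 9 were called higher, beside 13.4% of all genes, and TM7SF2 joined the other 5.

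Adding the ATR hairpin to the p16 hairpin came with higher levels of 4 of the 9 and lower levels of none. TM7SF2 rose 4.04-fold over shp16, DHCR7 1.87-fold, MSMO1 1.72-fold and SC5D 1.48-fold. All 9 fold changes were above 0, with a median of 0.47 on the log2 scale (range 0.24 to 2.01) beside 0.0021 over all genes. Of all genes, 2.73% were called higher and 3.49% lower in this comparison. For 6 of the 9 (TM7SF2, LBR, MSMO1, NSDHL, SC5D and DHCR7) every shp16/shATR library was above every shp16 library, and for 37.7% of all genes the 2 groups did not overlap in either direction. The library labelled shCont replicate 1 is in neither group but enters the shared estimate of spread, and without it LBR and NSDHL were also called, giving 6 of 9 beside 8.94% of all genes.

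Against shCont, shp16/shATR cells had higher levels of 8 of the 9, all but EBP. The median log2 fold change was 1.04 (range 0.17 to 2.62), beside −0.018 over all genes. Of all genes, 10.9% were called higher and 12.7% lower. The groups did not overlap for the same 8 genes, all upward, and for 41.5% of all genes. When the library labelled shCont replicate 1 was left out, all 9 were called higher, beside 15.9% of all genes. The comparisons share libraries (shp16 stands in both of the first comparisons and shCont in the first and the last), so their fold changes are set side by side here and are not independent of each other.

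**Figure D1:**
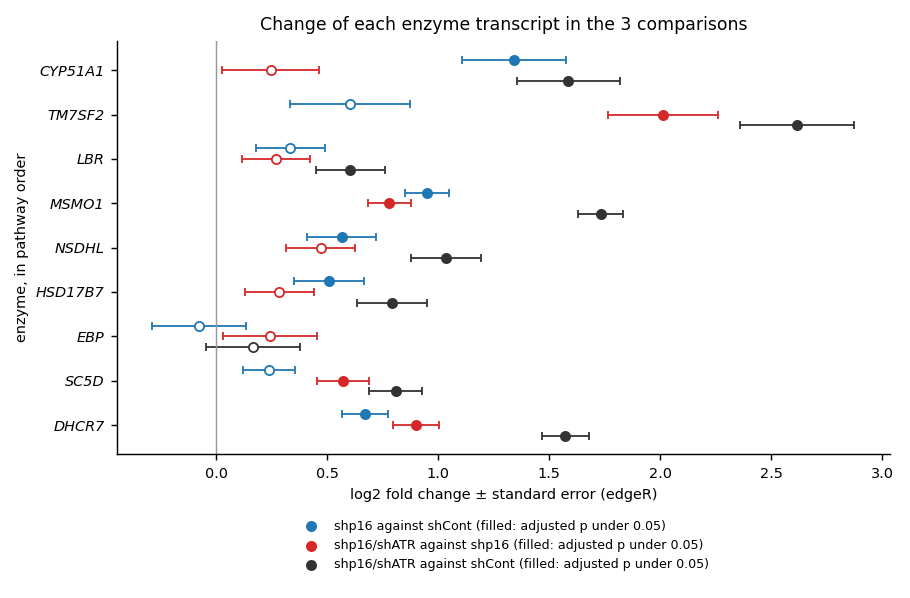
Log2 fold change of each enzyme transcript (horizontal axis, bars are the standard error derived from the F statistic of edgeR) in shp16 against shCont (blue), shp16/shATR against shp16 (red) and shp16/shATR against shCont (black), with the enzymes in pathway order from top to bottom. Filled points have an adjusted p under 0.05; TM7SF2 has the highest red and black points (2.01 and 2.62), CYP51A1 the highest blue point (1.34), and the 3 points of EBP are all open.

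CYP51A1 (ENSG00000001630, chromosome 7) opens this part of the pathway. Its level was 2.16, 4.21 and 3.80 CPM in the shCont libraries, 9.19, 8.25 and 8.19 in shp16 and 9.23, 8.74 and 12.5 in shp16/shATR. All shCont libraries were below all others, while the shp16 and shp16/shATR libraries overlapped. Its log2 fold change was 1.34 (SE 0.23, adjusted p = 0.0029) with the p16 hairpin and 0.25 (SE 0.22, adjusted p = 0.592) with the ATR hairpin added. Without the library labelled shCont replicate 1, which was its lowest, the first value was 1.09 (adjusted p = 0.0016) and that from shCont to shp16/shATR fell from 1.59 to 1.33. The value with the ATR hairpin added was 0.071 (adjusted p = 0.926) when shp16/shATR replicate 3, the highest library, was left out. The gene was counted by few reads, between 49 and 243 per library, and in GENCODE 29 a transcribed locus on the same strand, AC000120.2, shares 79.4% of its exonic bases. In the deposited coordinates LRRD1 overlaps CYP51A1 on the same strand, and it had at most 1 read in any library. How reads from shared bases were counted is not given in the sources used here, and AC000120.2 is not among the genes of the deposited tables. The CYP51A1 pseudogenes CYP51P2 and CYP51P3 had at most 8 reads in any library.

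TM7SF2 (ENSG00000149809, chromosome 11) showed the largest change of the 9 when the ATR hairpin was added. It stood at 3.45, 1.75 and 1.499 CPM in shCont, at 3.27, 3.51 and 3.51 in shp16 and at 12.3, 13.9 and 15.4 in shp16/shATR. The last group was far above the rest, whereas the library labelled shCont replicate 1 lay within the range of shp16. The log2 fold change was 2.01 with the ATR hairpin (SE 0.25, adjusted p = 0.00116) and 0.61 with the p16 hairpin (SE 0.27, adjusted p = 0.158). With the library labelled shCont replicate 1 left out, the latter was 1.07 (adjusted p = 0.0023), and that from shCont to shp16/shATR was 3.09 in place of 2.62. The value with the p16 hairpin was 0.39 at the lowest, without shCont replicate 3. The neighbouring gene VPS51 on the same strand shares 0.469% of the exonic bases of TM7SF2 in GENCODE 29.

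LBR (ENSG00000143815, chromosome 1), the other reductase of the same step, gave smaller values. Its level was 21.9, 31.4 and 35.4 CPM in shCont, 40.2, 36.2 and 35.3 in shp16 and 45.4, 42.9 and 46.4 in shp16/shATR. The shp16/shATR libraries were above all 6 others, and shCont and shp16 overlapped by 1 library of each. The log2 fold change was 0.34 (SE 0.16, adjusted p = 0.173) with the p16 hairpin, 0.27 (SE 0.15, adjusted p = 0.370) with the ATR hairpin added, and 0.60 (SE 0.16, adjusted p = 0.0154) from shCont to shp16/shATR. When the library labelled shCont replicate 1, the lowest, was left out, the first value was 0.15 (adjusted p = 0.246) and the last 0.42 (adjusted p = 0.0034). The call from shCont to shp16/shATR was lost when shp16/shATR replicate 1 or 3 was left out (adjusted p = 0.0549 and 0.0581), with log2 fold changes of 0.60 and 0.58.

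Because LBR and TM7SF2 catalyse the same reaction, their ratio was taken in each library from FPKM, which is per gene length. LBR exceeded TM7SF2 3.52-fold, 9.97-fold and 13.1-fold in shCont, 6.82-fold, 5.73-fold and 5.59-fold in shp16, and 2.05-fold, 1.71-fold and 1.68-fold in shp16/shATR. TM7SF2 thus made up between 7.09% and 22.1% of the summed FPKM of the pair in shCont, between 12.8% and 15.2% in shp16 and between 32.8% and 37.4% in shp16/shATR. The shCont mean of the log2 ratio was 2.95 ± 1.00, that of shp16 2.59 ± 0.16 and that of shp16/shATR 0.85 ± 0.16 (mean ± SD of 3 libraries). The shp16/shATR libraries were below all others, a difference of −1.74 from shp16 and of −2.10 from shCont, each with p = 0.1 in a two-sided exact permutation test, the smallest that 3 against 3 libraries allow. Between shp16 and shCont the difference was −0.36 (exact permutation p = 0.6), and without the library labelled shCont replicate 1 it was −0.93. LBR remained the more abundant of the pair in every library.

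**Figure D2:**
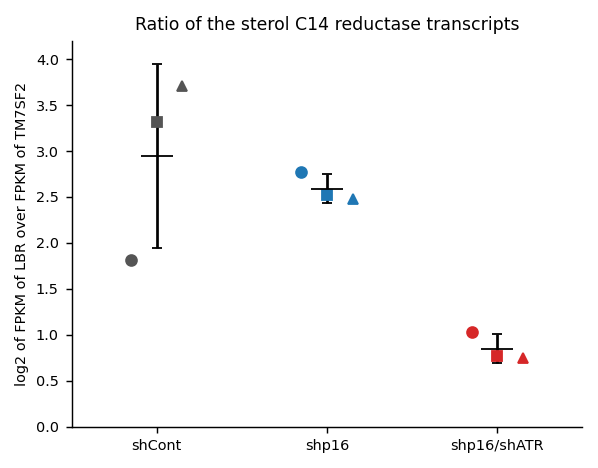
Log2 ratio of the FPKM of LBR to the FPKM of TM7SF2 (vertical axis) in each library, with circles, squares and triangles for replicates 1, 2 and 3 and black bars for the mean and SD of a group. The shp16/shATR libraries lie between 0.74 and 1.04, below all shp16 libraries (2.48 to 2.77) and all shCont libraries (1.82 to 3.71).

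The 3 enzymes that remove the remaining methyl groups were higher in shp16, and by unequal amounts. MSMO1 (ENSG00000052802, chromosome 4), the oxidase that starts each round, was at 47.9, 49.1 and 55.3 CPM in shCont, at 94.2, 100.1 and 100.3 in shp16 and at 166, 169 and 171 in shp16/shATR. The groups were widely separated. Its log2 fold change was 0.95 (SE 0.10, adjusted p = 8.47e-05) with the p16 hairpin and 0.78 (SE 0.10, adjusted p = 0.0013) with the ATR hairpin added. Without the library labelled shCont replicate 1 the former was 0.91 (adjusted p = 7.76e-06). MSMO1 and DHCR7 were called in both comparisons in all fits that left out a library.

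NSDHL (ENSG00000147383, X chromosome), the dehydrogenase that follows, was at 30.0, 18.9 and 20.6 CPM in shCont, at 35.9, 34.3 and 32.8 in shp16 and at 46.5, 46.0 and 50.4 in shp16/shATR. The groups did not overlap, and the highest shCont library was the one labelled replicate 1. The log2 fold change was 0.56 (SE 0.16, adjusted p = 0.0324) with the p16 hairpin and 0.47 (SE 0.15, adjusted p = 0.101) with the ATR hairpin added. The first call held in 1 of the 9 fits that left out a library, the one without the library labelled shCont replicate 1 (log2 fold change 0.79, adjusted p = 8.32e-05), with an adjusted p of up to 0.105 in the others. From shCont to shp16/shATR NSDHL rose by 1.04 (SE 0.16, adjusted p = 7.24e-04), and this held in all 9.

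HSD17B7 (ENSG00000132196, chromosome 1), the ketoreductase that ends the round, was at 26.5, 20.8 and 20.1 CPM in shCont, at 26.4, 32.7 and 36.8 in shp16 and at 42.7, 40.5 and 33.6 in shp16/shATR. Neighbouring groups overlapped by 1 library in both cases. With the p16 hairpin its log2 fold change was 0.51 (SE 0.16, adjusted p = 0.0499), at the edge of the threshold, and the call held in 2 of the 9 fits that left out a library, those without the library labelled shCont replicate 1 (0.64, adjusted p = 0.0053) and without shp16 replicate 1. From shCont to shp16/shATR it was 0.79 (SE 0.16, adjusted p = 0.0038), which held in all 9. The pseudogene HSD17B7P2 had between 55 and 221 reads per library against 402 to 935 of HSD17B7, so that reads could be divided between the copies and the level of HSD17B7 is uncertain to that extent.

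EBP (ENSG00000147155, X chromosome), the isomerase, was the exception of the group. It was at 68.4, 40.5 and 35.2 CPM in shCont, at 53.1, 42.0 and 41.7 in shp16 and at 50.004, 54.8 and 56.9 in shp16/shATR. The library labelled shCont replicate 1 was the highest of all 9, and the groups overlapped in every comparison. The log2 fold change was −0.08 (SE 0.21, adjusted p = 0.845) with the p16 hairpin, 0.24 (SE 0.21, adjusted p = 0.583) with the ATR hairpin added and 0.17 (SE 0.21, adjusted p = 0.615) between the ends. With the library labelled shCont replicate 1 left out, these were 0.26, 0.24 and 0.51, and the last passed the test (adjusted p = 0.0061). The value for EBP with the p16 hairpin therefore changed its sign with 1 library.

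SC5D (ENSG00000109929, chromosome 11), the desaturase, was at 49.7, 57.4 and 67.3 CPM in shCont, at 67.6, 69.7 and 68.4 in shp16 and at 99.4, 100.1 and 106 in shp16/shATR. The shp16 libraries lay just above the highest shCont library and the shp16/shATR libraries well above both. Its log2 fold change was 0.24 (SE 0.12, adjusted p = 0.199) with the p16 hairpin and 0.57 (SE 0.12, adjusted p = 0.0153) with the ATR hairpin added. When the library labelled shCont replicate 1, the lowest, was left out, the first was 0.13 (adjusted p = 0.254), and without shCont replicate 3, the highest of its group, it was 0.36 (adjusted p = 0.0594). The second call held in the 3 fits that left out a shCont library and was lost in the 6 that left out a library of shp16 or shp16/shATR (adjusted p between 0.0563 and 0.0772), although the fold change stayed between 0.54 and 0.59.

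DHCR7 (ENSG00000172893, chromosome 11), the reductase that acts last among the 9, was at 134, 116 and 116 CPM in shCont, at 208, 188 and 188 in shp16 and at 353, 360 and 379 in shp16/shATR. The groups were well apart. It rose by 0.67 on the log2 scale (SE 0.10, adjusted p = 0.00136) with the p16 hairpin and by 0.90 (SE 0.10, adjusted p = 8.71e-04) with the ATR hairpin added. Without the library labelled shCont replicate 1 the former was 0.74 (adjusted p = 5.95e-05). The antisense gene RP11-660L16.2 had between 89 and 193 reads per library against 2267 to 8318 of DHCR7. In GENCODE 29, where it is named AP002387.1, it shares 0 exonic bases with DHCR7. Whether the counting used strand is not given in the sources used here.

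**Figure D3:**
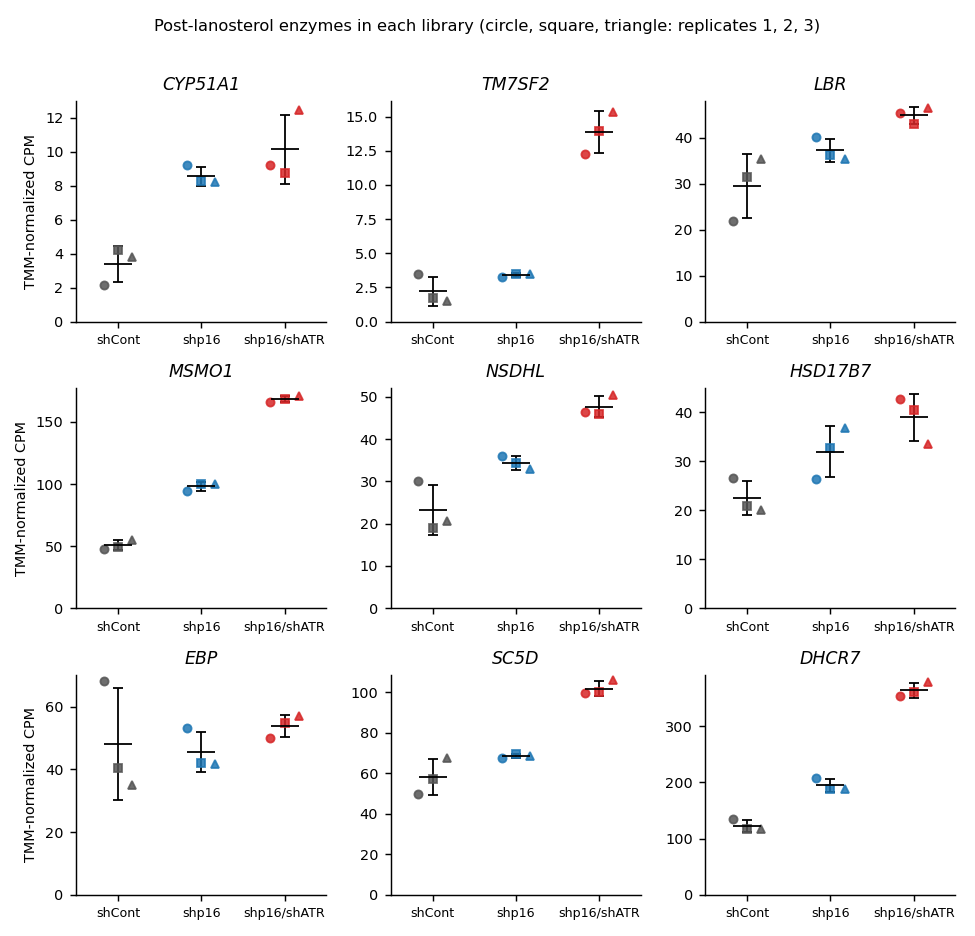
TMM-normalized CPM (vertical axes, each from 0) of the 9 enzymes in each library, with circles, squares and triangles for replicates 1, 2 and 3, and black bars for the mean and SD of each group. MSMO1 and DHCR7 rise in 2 separate steps, CYP51A1 is higher in shp16 with overlap after that, TM7SF2 is at 12.3 CPM or more in shp16/shATR only, and EBP overlaps between all groups.

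Whether the change with the ATR hairpin differed from the change with the p16 hairpin was tested for each gene in the same model. None of the 9 passed by edgeR, beside 2.45% of all genes in the upward and 3.35% in the downward direction. At an unadjusted p under 0.05 there were 2, TM7SF2 and CYP51A1. TM7SF2 had the difference furthest above 0, at 1.41 (SE 0.45, adjusted p = 0.0940), and CYP51A1 the one furthest below 0, at −1.09 (SE 0.38, adjusted p = 0.123). The other 7 lay between −0.23 and 0.33. DESeq2 called 1 of the 9, TM7SF2 (adjusted p = 0.0310). With the library labelled shCont replicate 1 left out, edgeR called 2, TM7SF2 at 0.94 (adjusted p = 0.0433) and SC5D at 0.44 (adjusted p = 0.0312), both in the upward direction, beside 7.94% of all genes.

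**Figure D4:**
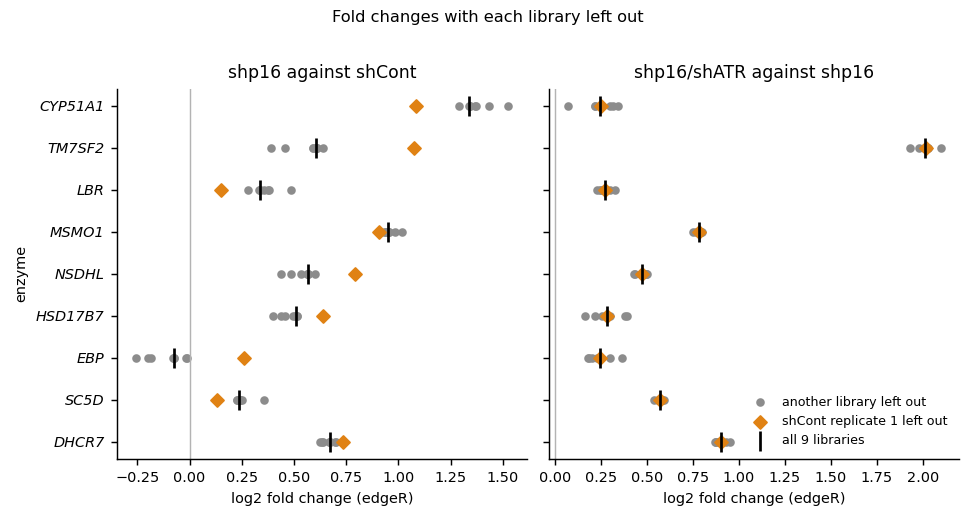
Log2 fold change of each enzyme (horizontal axes, edgeR) in shp16 against shCont (left) and shp16/shATR against shp16 (right) with all 9 libraries (black bar) and with 1 library left out (grey points, or an orange diamond for the library labelled shCont replicate 1). On the left that library moves TM7SF2 from 0.61 to 1.07 and EBP from −0.08 to 0.26, and on the right the diamonds sit on the black bars.

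Levels were compared between the genes by FPKM. In shCont DHCR7 was the highest (mean 45.9), followed by EBP (26.9), SC5D (23.8) and MSMO1 (22.4), whose libraries overlapped between each neighbouring pair, then NSDHL (12.0), HSD17B7 (8.81) and LBR (7.88), of which the last pair overlapped. CYP51A1 and TM7SF2 were the lowest, at 1.07 and 1.06, and could not be ordered. In shp16 MSMO1 took the second place with 43.2, after DHCR7 with 72.6, and SC5D (27.8) and EBP (25.5) overlapped, as did HSD17B7 (12.6) and LBR (9.82). In shp16/shATR no neighbours overlapped, and the order ran from DHCR7 (136), MSMO1 (74.3), SC5D (41.4), EBP (30.4), NSDHL (24.7), HSD17B7 (15.3) and LBR (11.9) to TM7SF2 (6.61) and CYP51A1 (3.15). TM7SF2 thus stood below CYP51A1 in every shp16 library and above it in every shp16/shATR library. Both genes were counted by few reads, and what the shared exonic bases do to the level of CYP51A1 was not tested. The summed FPKM of the 9 was between 145 and 158 in shCont, between 207 and 217 in shp16 and between 337 and 349 in shp16/shATR, and DHCR7 held the largest part in each.

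**Figure D5:**
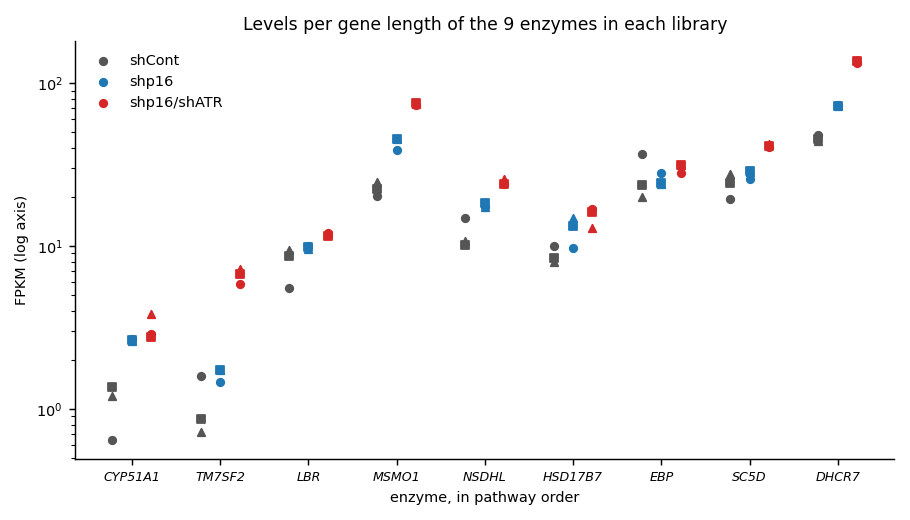
FPKM (vertical log axis) of the 9 enzymes in pathway order in each library of shCont (grey), shp16 (blue) and shp16/shATR (red), with circles, squares and triangles for replicates 1, 2 and 3. DHCR7 is the highest in every group, CYP51A1 and TM7SF2 are the lowest, and these 2 change places between shp16 and shp16/shATR.

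Enzymes that act before lanosterol were counted in the same fit. Of 10 (ACAT2, HMGCS1, MVK, PMVK, MVD, IDI1, FDPS, FDFT1, SQLE and LSS), 7 were called higher with the p16 hairpin (7.23% of all genes), 5 with the ATR hairpin added (2.73% of all genes) and 9 between shCont and shp16/shATR (10.9% of all genes), and none lower. Their median log2 fold changes were 0.58, 0.53 and 1.16, beside 0.56, 0.47 and 1.04 of the 9 enzymes after lanosterol. When the library labelled shCont replicate 1 was left out, the counts were 9, 9 and 9, beside 13.4%, 8.94% and 15.9% of all genes called higher. The medians of the 10 were then 0.64, 0.53 and 1.36. PMVK had values below 0 (−0.28, −0.27 and −0.55, none past the threshold), of which the first was 0.031 without that library. LSS, which makes lanosterol, had log2 fold changes of 0.49 (adjusted p = 0.0067) with the p16 hairpin and 0.23 (adjusted p = 0.222) with the ATR hairpin added. Without the library labelled shCont replicate 1 these were 0.52 (adjusted p = 6.07e-04) and 0.23 (adjusted p = 0.0340), so that LSS was then called higher in both.

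Among 7 genes that control the pathway, 2 were called higher with the p16 hairpin, SREBF2 and INSIG1, beside 7.23% of all genes. SREBF2 changed by 0.57 (adjusted p = 0.0024) and then by 0.04 (adjusted p = 0.875). INSIG1, which holds the SREBP precursor in the endoplasmic reticulum and is itself a target, rose by 1.28 (adjusted p = 5.78e-06) and then by 1.68 (adjusted p = 9.72e-06). SREBF1, SCAP, INSIG2, MBTPS1 and MBTPS2 were not called in either comparison. With the ATR hairpin added, 1 of the 7 was thus called higher, INSIG1, beside 2.73% of all genes. From shCont to shp16/shATR 3 were called higher, SREBF2, INSIG1 and MBTPS1 (0.29, adjusted p = 0.0457), beside 10.9% of all genes. Without the library labelled shCont replicate 1, INSIG2 was also called lower with the p16 hairpin (−0.41, adjusted p = 0.0395). MBTPS1 and MBTPS2 were then called higher with the ATR hairpin added (0.24 and 0.28), giving 3 of 7 beside 8.94% of all genes.

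Among all other genes tested, those with the profile most like each enzyme were found by a root mean square difference over the 9 libraries. It was taken on log2 of CPM plus 0.5, each gene centred on its own mean. MSMO1 was closest to SQLE (0.107), which acts before lanosterol and is the only other enzyme of the pathway among the 2 nearest genes of any of the 9. TM7SF2 was closest to H19 (0.155) and then NPPC (0.370), DHCR7 to NSG1 (0.0941) and CYP51A1 to HSPG2 (0.153). LBR had RPS6KA3 (0.0312), SC5D RAB21 (0.0580), EBP UBXN6 (0.0672), NSDHL PLA2G16 (0.0710) and HSD17B7 SEMA7A (0.0847). Among the 9 themselves the closest pairs were LBR with SC5D (0.156) and MSMO1 with DHCR7 (0.163), and the farthest was TM7SF2 with EBP (0.949). Such likeness is a description over 9 libraries in 3 groups.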

How the data were processed

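RNA was extracted, and library preparation, sequencing and bioinformatics were done by Novogene. The submitters' notes name STAR 2.6.1, DESeq2 (given as version 2) and GRCh38. None of the 9 gene starts in the deposited tables equals GENCODE 29 (GRCh38), so positions were taken from RefSeq and GENCODE. The authors deposited raw read counts per gene, without normalization. The authors also deposited FPKM values, which equalled the counts scaled by gene length and library total (largest relative difference 4.22e-07). The 3 shp16/shATR columns of counts share 1 name and were matched to replicates by FPKM. The counting program and its strand setting are not given in the sources used here.

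Counts were normalized by TMM, filtered by filterByExpr and tested with the quasi-likelihood test of edgeR 4.0.16 (R 4.3.3) over 15776 genes and all 9 libraries, with 1 coefficient per group and Benjamini-Hochberg adjustment. Each adjusted p is from this test unless DESeq2 1.42.0 or limma 3.58.1 is named. Each SE was derived as the absolute log2 fold change divided by the square root of the F statistic of the edgeR test. Ratios were tested by exact permutation (scipy 1.17.1). The procedure was tested on simulated data. All 9 enzymes are named, with lists of related genes and for each enzyme the nearest genes by profile. Some genes of these lists are not reported here. The members and lists were chosen with earlier results of these data known. Alternatives were another tool, other scalings, filters and thresholds, fits of 2 groups, the replicate number as a block, and each library left out. The counts of related genes without shCont replicate 1 were added after seeing the data. Markers at or near 0 are given as levels only.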

Additional observations from a re-analysis of the deposited data

How the results depend on the processing

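The calls of CYP51A1, MSMO1 and DHCR7 in shp16 against shCont, and of TM7SF2, MSMO1 and DHCR7 in shp16/shATR against shp16, were kept under all 18 alternatives tried for each. The 5 enzymes called in shp16 against shCont became 3 with an adjusted p under 0.01, with upper-quartile normalization and with only the 2 groups compared, and lay between 3 and 6 with each library left out. The calls lost were NSDHL and HSD17B7. Over all 15776 genes, 2339 were called in this comparison at the settings used above. The number was 994 with an adjusted p under 0.01 and 2397 with upper-quartile normalization. The difference between the 2 changes, with 0 calls, gave 1 by DESeq2, 2 without a filter on low counts (TM7SF2 higher and CYP51A1 lower), 1 by limma on log2(FPKM + 1), and between 0 and 2 with a library left out. For this difference 915 of all genes were called by edgeR and 1520 by DESeq2. Leaving out a library moved the median log2 fold change to between 0.46 and 0.74 (shp16 against shCont) and to between 0.91 and 1.26 (shp16/shATR against shCont), and the log2 ratio of LBR to TM7SF2 in shp16 against shCont to between −0.93 and 0.023, the latter without shCont replicate 3. Signs turned only where no test was passed: EBP in shp16 against shCont (−0.26 to 0.26), in shp16/shATR against shCont (−0.016 to 0.51) and in the difference of changes (−0.017 to 0.56) with a library left out, where its one call, at 0.51, had a positive sign, and the difference of changes of LBR (−0.22 to 0.12) and NSDHL (−0.32 to 0.030), which were also 0.028 and 0.0063 with upper-quartile normalization. The cause was not tested, and each fit without a library has fewer samples.

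With the replicate number as a replicate block, 4 enzymes were called in shp16 against shCont (HSD17B7 lost, adjusted p = 0.0846), 4 in shp16/shATR against shp16, 8 in shp16/shATR against shCont and 0 in the difference. The calls over all genes in this fit are not given here. Deviations from the group means correlated between −0.240 and 0.224 over 15776 genes for libraries with the same number. For libraries with different numbers the correlations lay between −0.297 and 0.351. Whether libraries with the same number were handled together was not tested. The lowest read counts were those of CYP51A1 and TM7SF2, down to 49 and 30 per library, and the smallest change that these could show was not measured.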

Other observations

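Genes of the nuclear lamina were examined because LBR binds it. Of 9 (LMNA, LMNB1, LMNB2, EMD, TMPO, BANF1, LEMD3, SUN1 and SUN2), 2 were called higher in shp16 against shCont, LMNB1 (log2 fold change 0.75, adjusted p = 6.92e-04) and EMD (0.44, adjusted p = 0.0222), and none lower, beside 7.23% and 7.59% of all genes. In shp16/shATR against shp16 only LMNB2 was called, and it was lower (−0.62, adjusted p = 0.0064), beside 3.49% of all genes called lower. The difference between the 2 changes was below 0 and called for 3, LMNB1 (−0.96), LMNB2 (−0.84) and TMPO (−0.70), beside 3.35% of all genes, while that of LBR was −0.07 and not called. With the library labelled shCont replicate 1 left out, 5 of the 9 were called higher in shp16 against shCont, beside 13.4% of all genes. In shp16/shATR against shp16, 1 was then called higher, beside 8.94% of all genes, and 3 were called lower. For the difference 4 were called lower. The shares of all genes called lower in this fit were not computed.

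Of 6 genes for redox and scaffold partners of the enzymes (POR, CYB5A, CYB5B, CYB5R3, PGRMC1 and C14orf1), none was called in shp16 against shCont by edgeR at the adjusted threshold, and none had an unadjusted p under 0.05. When the library labelled shCont replicate 1 was left out, POR (0.37, adjusted p = 0.0304) and C14orf1 (0.28, adjusted p = 0.0205) were called higher there, beside 13.4% of all genes. C14orf1, whose product ERG28 is a scaffold for enzymes that remove the methyl groups, was lower in shp16/shATR against shp16 (−0.42, adjusted p = 0.0442), with 60.3, 54.3 and 56.0 CPM in shp16 and 43.6, 41.7 and 42.3 in shp16/shATR. CYB5B was higher in shp16/shATR against shCont (0.35, adjusted p = 0.0469). EBPL, a paralog of EBP, was at 10.5, 10.4 and 12.0 CPM in shp16 and at 7.61, 6.88 and 6.82 in shp16/shATR, a log2 fold change of −0.63 (adjusted p = 0.0287), and FAXDC2, a relative of MSMO1, was not called in any comparison.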
